A study of Homo sapiens with 4 samples.

Results

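Innate defence products of epithelial cells were examined here as 5 genes, LCN2, SLPI, C3, SRGN and ICAM1, of 14006 genes with a named probe on whole-transcript Affymetrix arrays. All 5 encode secreted or surface proteins, and they were chosen by their measured intensities, which stood high on the array of the culture called PC3-H. Their levels on PC3-H against the other arrays are therefore a description and carry no test. Each gene had 1 probe. The study took RNA from 4 cultures labelled as 2 prostate cancer lines and put each on 1 array, so no value has a replicate, no error can be given and no p-value was computed. Both PC3-H and PC3-L come from PC3, a bone metastasis line that grows without androgen. They were separated with the antibody IIH6C4, which binds the laminin-binding glycan, and by titles and source names they are high (PC3-H) and low (PC3-L) for that glycan. The free-text descriptions give the glycan the other way round, and the titles were followed. The culture titled LNCaP-AI is labelled as LNCaP grown in charcoal-stripped serum, low for the glycan and androgen-independent, and its description speaks of perineural cell medium. The fourth culture is LNCaP, from a lymph node metastasis, labelled high for the glycan and androgen-dependent. PC3-H and LNCaP are labelled low for motility and invasion, PC3-L and LNCaP-AI high.

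The 5 proteins act at the border between epithelium and microbes or leukocytes. LCN2 (lipocalin 2) binds bacterial siderophores and so withholds iron. SLPI inhibits neutrophil elastase and other serine proteases in mucosal fluid. C3 is the central complement protein, cleaved to an opsonin and an anaphylatoxin. SRGN (serglycin) is an intracellular proteoglycan core protein that packs cargo in secretory granules and can be secreted. ICAM1 is the surface ligand to which leukocyte beta-2 integrins bind. Epithelial cells raise LCN2, C3 and ICAM1 in response to inflammatory cytokines, largely through the transcription factor NF-kappa B.

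Of the 5 genes LCN2 and ICAM1 had an entry in the promoter table used here, and SLPI, C3 and SRGN were not analysed in this respect. The 250 bases before the annotated start of each are shown because these genes are textbook targets of NF-kappa B. The sequences are those of RefSeq, build GRCh38.p14, plus strand, at chr9:128149203-128149452 for LCN2 and chr19:10270870-10271119 for ICAM1. Capitals mark the letters matched by any of the motifs searched on both strands.
LCN2: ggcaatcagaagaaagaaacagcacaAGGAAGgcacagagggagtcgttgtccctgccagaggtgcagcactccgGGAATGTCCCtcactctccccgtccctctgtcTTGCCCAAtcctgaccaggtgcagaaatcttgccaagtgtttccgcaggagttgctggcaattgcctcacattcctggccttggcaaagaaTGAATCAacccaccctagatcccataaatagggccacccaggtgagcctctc
ICAM1: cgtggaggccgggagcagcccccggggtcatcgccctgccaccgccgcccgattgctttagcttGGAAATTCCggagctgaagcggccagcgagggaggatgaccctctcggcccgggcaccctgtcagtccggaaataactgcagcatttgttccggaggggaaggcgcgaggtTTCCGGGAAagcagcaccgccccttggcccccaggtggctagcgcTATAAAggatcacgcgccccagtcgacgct
In the LCN2 window the kappa B consensus matched once, on the minus strand, with its leftmost base at -175 from the start. That consensus was found in 9.57% of 27305 promoter windows of this length. The AP-1 motif TGANTCA matched at -52 (6.6% of windows), the C/EBP motif TTNNGNAA at -143 (33.6%) and the ETS motif AGGAAG at -224 (28.7%). In the ICAM1 window the TATA box TATAAA lay at -30 (11.1% of windows) and the STAT motif TTCNNNGAA at -75 (6.78%). The consensus form of kappa B did not match there, while the paired half-sites GGAANTTCC, searched after the sequence had been seen, matched at -186 (0.831%). The IRF motif, GAAA repeated after any 2 bases, matched in neither window (3.07%). None of these matches overlapped another motif, and a match is a description of letters, not of a bound site.

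The deposited intensities are linear, with array medians of 41.2 for PC3-H, 39.8 for PC3-L, 40.9 for the LNCaP-AI-labelled array and 40.8 for LNCaP. The lowest value of the table is 17.6, so folds against a dim value are understated. Folds and differences below are on the log2(intensity + 1) scale. A gene was compared in a pair when the higher of its 2 values reached the 40th percentile of its array, and a fold of 2 was the threshold of size. The LNCaP-AI-labelled array goes against its line label at line markers. KLK3 (prostate-specific antigen) read 59.0 on PC3-H, 63.4 on PC3-L, 61.2 on the LNCaP-AI-labelled array and 1781 on LNCaP, and FOLH1 (prostate-specific membrane antigen) read 23.4, 23.0, 24.2 and 944 in the same order. CD44 and the receptor kinase AXL, both PC3 markers, read 297 and 1015 on the LNCaP-AI-labelled array, against 23.9 and 47.4 on LNCaP. All 6 PC3 line markers measured were 2-fold or more higher on that array than on LNCaP. Of these 6, CXCL8 was 2-fold or more higher on PC3-H than on the LNCaP-AI-labelled array, and VIM, UCHL1 and ANXA1 were lower. Every direction drawn from this array below rests on that label.

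LCN2 had an intensity of 1881 on PC3-H, against 46.1 on PC3-L, 46.0 on the LNCaP-AI-labelled array and 64.5 on LNCaP. Only the PC3-H array was high, and the other 3 lay within 1.39-fold of each other. In bulk RNA, more cells with a transcript and more transcript per cell cannot be told apart. The difference was 40-fold (log2 5.32) over PC3-L, 40-fold (5.32) over the LNCaP-AI-labelled array and 28.7-fold (4.85) over LNCaP.

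SLPI had an intensity of 1393 on PC3-H, 29.1 on PC3-L, 29.1 on the LNCaP-AI-labelled array and 145 on LNCaP. It was the gene of the 5 with an intermediate level on a second array: LNCaP lay above the 2 low arrays and below PC3-H. The fold on PC3-H was 46.3 over PC3-L (log2 5.53), 46.3 over the LNCaP-AI-labelled array and 9.53 over LNCaP.

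C3 had an intensity of 810 on PC3-H, 40.2 on PC3-L, 41.8 on the LNCaP-AI-labelled array and 39.0 on LNCaP. The 3 low values differed by 1.07-fold at most and lay close to the medians of their arrays. The fold on PC3-H was 19.7 over PC3-L (log2 4.30), 18.9 over the LNCaP-AI-labelled array and 20.3 over LNCaP.

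SRGN had an intensity of 1148 on PC3-H, 26.2 on PC3-L, 27.1 on the LNCaP-AI-labelled array and 32.0 on LNCaP. The 3 low values lay below the medians of their arrays. The fold on PC3-H was 42.2 over PC3-L (log2 5.40), 40.9 over the LNCaP-AI-labelled array and 34.8 over LNCaP.

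ICAM1 had an intensity of 474 on PC3-H, 64.9 on PC3-L, 44.6 on the LNCaP-AI-labelled array and 49.8 on LNCaP. It showed the smallest fold of the 5 over PC3-L, and PC3-L was the highest of its 3 low arrays. The fold on PC3-H was 7.21 over PC3-L (log2 2.85), 10.4 over the LNCaP-AI-labelled array and 9.35 over LNCaP.

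**Figure D1:**
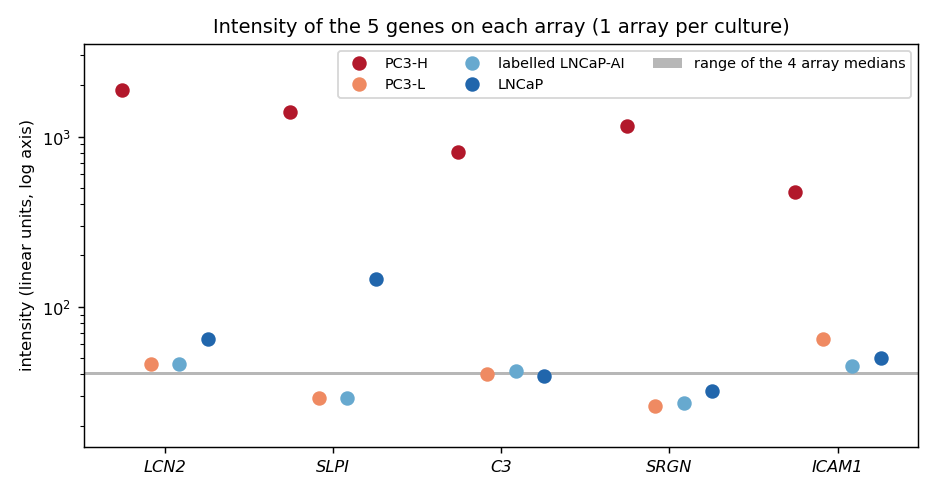
Intensity (linear units on a log axis) of LCN2, SLPI, C3, SRGN and ICAM1 on the 4 arrays, 1 point per array, with the range of the array medians as a grey band. Every gene is highest on PC3-H, at 474 to 1881, and the only other value clear of the band by over 2-fold is SLPI on LNCaP at 145.

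All 5 genes were 2-fold or more higher on PC3-H than on PC3-L, where 3.77% of 11124 genes were higher and 8.59% lower. This is the contrast behind the choice of the genes, so nothing is read from their count. With a trend with gene length removed, higher genes made up 41.8% of all calls in this pair, against 30.5% as deposited. The same 5 were 2-fold or more higher on PC3-H than on LNCaP (4.49% of genes higher, 5.46% lower) and than on the LNCaP-AI-labelled array (3.35% higher, 3.98% lower). These comparisons share the PC3-H array. Set against the highest of the other 3 arrays, PC3-H was 2-fold or more higher at 139 of 11503 genes (1.21%), the 5 included, and 2-fold or more lower at 12.8%. A difference from the highest of 3 arrays runs low by construction, with a median of -0.21 on the log2 scale over all genes. Leaving the LNCaP-AI-labelled array out of that measure can only keep or raise a difference. That the 5 stayed past 2-fold was therefore given in advance.

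The LNCaP-AI-labelled array was also set against LNCaP, a pair without PC3-H. By label the cultures of this pair differ in androgen dependence and in the glycan, but their line markers differ too. What goes with androgen independence or loss of the glycan therefore cannot be told apart here from a difference of line. The genes were chosen as high on PC3-H, and LCN2, C3, SRGN and ICAM1 were low on both arrays of this pair. SLPI was 2-fold or more lower on the LNCaP-AI-labelled array, at 29.1 against 145 on LNCaP (log2 difference -2.28, 4.85-fold lower). It was the only 1 of the 4 genes past the filter to be lower by that much, in a pair where 5.13% of 11135 genes were lower. None of these 4 genes was higher by 2-fold, beside 5.45% of all genes, and nothing is read from so few. LCN2 differed by -0.48, ICAM1 by -0.16 and C3 by 0.10 on the log2 scale. SRGN, at 27.1 and 32.0, did not reach the filter on either array of this pair. The median over the 4 genes was -0.32 and over all genes 0.00. SLPI read the same there as on PC3-L, and KLK3 and FOLH1 were also within 2-fold of PC3-L there.

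**Figure D2:**
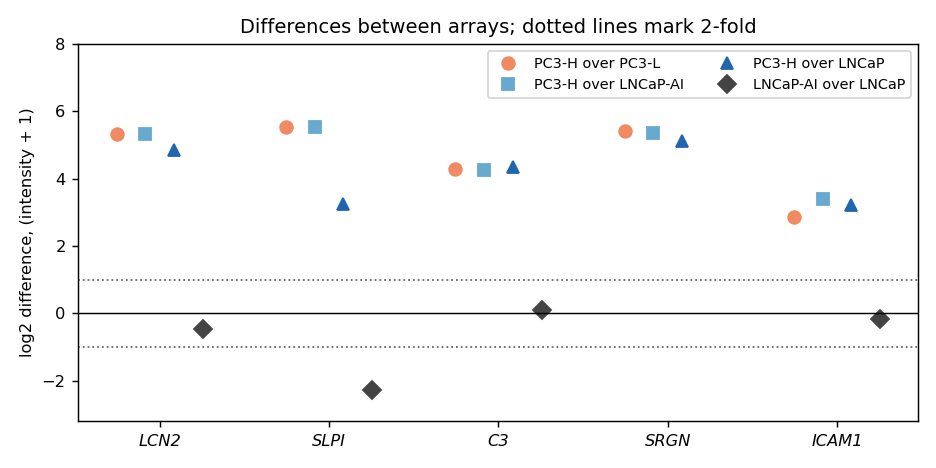
Log2 differences of intensity + 1 for the 5 genes in 4 comparisons of arrays, with dotted lines at 2-fold. The differences with PC3-H on top run between 2.85 and 5.53, and in the pair LNCaP-AI over LNCaP only SLPI, at -2.28, lies outside the dotted lines; SRGN is not drawn there because it was below the filter.

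The pattern over the 4 arrays was compared between genes as the Euclidean distance of log2 values, each gene centred on its own mean, over 11508 other genes. LCN2 and SRGN were each other's nearest gene (distance 0.21). Next to both came DKK1, a secreted Wnt antagonist, at 1054 on PC3-H and between 23.3 and 24.9 on the other arrays, with distances of 0.45 and 0.25. The third nearest to each was LINC02582, a long non-coding RNA gene, at distances of 0.73 and 0.74. C3 was nearest to LINC03033 (0.16), LINC02582 (0.20) and CDA, a cytidine deaminase (0.50). ICAM1 was nearest to HBEGF, a ligand of the EGF receptor (0.20), then to PTGES, a prostaglandin E synthase (0.33), and KRT19, a keratin of simple epithelia (0.34).

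SLPI lay at distances of 1.51 to LCN2, 1.71 to SRGN, 1.96 to C3 and 2.43 to ICAM1. ICAM1 lay at 1.84 to LCN2, 1.92 to SRGN and 1.07 to C3. LCN2 and SRGN were thus farther from ICAM1 than from SLPI. The genes nearest to SLPI were ASS1, an enzyme of arginine synthesis (1.26), LCN2 (1.51) and the epithelial adhesion molecule EPCAM (1.54). ASS1 and EPCAM shared with SLPI a level on LNCaP between PC3-H and the other arrays. ASS1 read 1146 on PC3-H, 65.5 on PC3-L, 52.9 on the LNCaP-AI-labelled array and 371 on LNCaP. EPCAM read 667, 30.1, 33.3 and 314 on the same arrays. With 4 arrays these distances describe the arrays and not a relation across cultures.

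Of 26 listed antimicrobial and iron-withholding genes 15 were measured, LCN2 and SLPI included. Most of the others with a value were within 2-fold. Beside LCN2 and SLPI, 6 genes of this list passed the filter in the PC3 pair, and 1 was 2-fold or more higher on PC3-H. This was S100A9, a calcium-binding subunit of calprotectin, at 242 on PC3-H, 67.7 on PC3-L, 68.7 on the LNCaP-AI-labelled array and 58.0 on LNCaP (3.53-fold over PC3-L). Its partner subunit S100A8 was dim throughout, at 30.2, 26.4, 27.5 and 27.4. The median of the 6 was 0.07 on the log2 scale, against 0.02 over all genes. The iron-binding protein LTF and lysozyme LYZ were below the filter on both PC3 arrays. Of the lipocalin receptors LRP2 and MC4R were measured, and both were below the filter on all 4 arrays, LRP2 at 27.1 to 28.6.

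The measured genes of neutrophil granule proteases and their relatives were within 2-fold in the PC3 pair. CTSG, PRTN3 and AZU1 read 35.5, 38.7 and 48.4 on PC3-H, against 33.2, 42.3 and 40.1 on PC3-L. GRN, the growth factor precursor progranulin, which SLPI protects from elastase, was 2.28-fold higher on PC3-H, at 855 against 374. In contrast to SLPI it was also 3.35-fold higher on the LNCaP-AI-labelled array than on LNCaP, at 894 against 266.

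Among the other complement components, 8 passed the filter in the PC3 pair and 1 was higher. This was CFB, factor B, which forms the alternative pathway convertase with C3b, at 99.2 on PC3-H, 43.6 on PC3-L, 47.0 on the LNCaP-AI-labelled array and 48.3 on LNCaP (2.24-fold over PC3-L). CFD, the protease that cleaves factor B, read 125 on PC3-H and 77.7 on PC3-L, within 2-fold. C4A and C4B, near-identical copies that probes may not separate, read 48.5 and 48.3 on PC3-H and 43.7 and 43.6 on PC3-L. The median of the 8 was 0.16. Of 4 complement regulators and receptors past the filter, none was 2-fold apart in the PC3 pair. CLU, the secreted chaperone clusterin that inhibits the terminal complex, read 67.5 on PC3-H and 90.2 on PC3-L, and was 4.61-fold higher on the LNCaP-AI-labelled array than on LNCaP (179 against 38.1).

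Of 11 listed cargo and partner genes of serglycin 6 were measured, with no granzyme among them. Of 5 past the filter in the PC3 pair 0 were 2-fold apart, with a median of 0.01. The cytolytic protein PRF1 read 39.8 on PC3-H and 39.5 on PC3-L, and CD44, a receptor for serglycin's chains, 239 and 318. Enzymes that build the glycosaminoglycan chains of proteoglycans were mixed. Of 16 past the filter 1 was higher on PC3-H, the sulfotransferase gene CHST15 (59.5 against 28.5 on PC3-L), and 3 were lower. The lower ones were the chondroitin enzymes CSGALNACT2 (64.0 against 219, 3.39-fold) and CHSY1 (2.03-fold) and the heparan sulfate enzyme EXTL3 (39.7 against 94.0). The median of the 16 was 0.07. In the pair of the LNCaP-AI-labelled array with LNCaP 3 were higher, led by the heparan sulfate polymerase gene EXT1 (213 against 63.6) and the sulfotransferase gene CHST7 (105 against 36.9).

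Among genes of leukocyte adhesion, ICAM1 was the only 1 of 10 past the filter to be 2-fold or more higher on PC3-H. ICAM3, its neighbour on chromosome 19, read 115 on PC3-H and 65.1 on PC3-L, within 2-fold, and ICAM2 39.4 and 36.1. VCAM1, the other major cytokine-induced adhesion ligand, was below the filter on all 4 arrays. Of the linkers that tie ICAM proteins to actin, MSN (moesin) was 2.23-fold lower on PC3-H, at 1217 against 2718 on PC3-L, and RDX (radixin) 2.01-fold lower, at 52.9 against 107. EZR (ezrin) read 787 and 695. MSN was 9.36-fold and EZR 2.45-fold higher on the LNCaP-AI-labelled array than on LNCaP.

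Of 17 listed genes for NF-kappa B and its feedback 9 were measured, and these were within 2-fold in the PC3 pair with 1 exception. The feedback genes NFKBIA, TNFAIP3 and BIRC3 were among those without a value. Of 9 past the filter in the PC3 pair 1 was higher on PC3-H, TNIP1, a ubiquitin-binding inhibitor of the pathway, at 396 on PC3-H, 140 on PC3-L, 125 on the LNCaP-AI-labelled array and 103 on LNCaP (2.83-fold over PC3-L). The subunit genes RELA, NFKB1 and REL read 400, 218 and 86.4 on PC3-H, against 474, 282 and 141 on PC3-L. The median of the 9 was -0.12, and messenger levels do not measure the activity of these factors. Of 12 secreted genes induced by NF-kappa B that passed the filter 2 were higher and 0 lower in the PC3 pair, with a median of 0.07. CXCL5, a neutrophil chemokine, was 77.5-fold higher on PC3-H than on PC3-L (2454 against 30.7). SAA1, an acute-phase apolipoprotein whose probe may not separate it from its near copy SAA2, was 3.17-fold higher (88.4 against 27.2). CXCL8, CXCL6 and CSF3, other classical targets, read 302, 151 and 225 on PC3-H, against 497, 203 and 231 on PC3-L. In the other pair CXCL6 was 5.31-fold higher (157 against 28.8 on LNCaP) and CXCL8 2.05-fold higher (46.9 against 22.3). Over LNCaP, PC3-H was 2-fold or more higher at 7 of 13 of these secreted genes and lower at 0 (median 1.18), beside 4.49% of all genes higher. Over the LNCaP-AI-labelled array it was higher at 6 of 12 and lower at 0 (median 0.89), beside 3.35%. CXCL5, CXCL8, LIF, SAA1 and CXCL3 were higher in both of these comparisons, which share the PC3-H array. LIF, a cytokine of the interleukin-6 family, read 241 on PC3-H, 214 on PC3-L, 35.9 on the LNCaP-AI-labelled array and 42.0 on LNCaP. The remaining pathway lists held 0 to 3 genes higher on PC3-H, beside the 5, in these comparisons.

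Factors of the C/EBP, ETS and STAT families that act on such genes were measured in part. EHF and SPDEF, ETS factors of secretory epithelium, were 5.86-fold and 5.33-fold higher on PC3-H than on PC3-L. Both were also high on LNCaP, where LCN2, C3, SRGN and ICAM1 were low and SLPI read 145, against 29.1 on PC3-L. The part of EHF and SPDEF in these levels was not tested. EHF read 202 on PC3-H, 33.7 on PC3-L, 36.5 on the LNCaP-AI-labelled array and 902 on LNCaP, and SPDEF read 306, 56.5, 76.6 and 566. STAT3, the mediator of interleukin-6 signals, was lower on PC3-H at the threshold itself, at 161 against 323. IRF1 read 78.6 on PC3-H and 43.1 on PC3-L, within 2-fold, and was 2.42-fold higher on the LNCaP-AI-labelled array than on LNCaP (95.5 against 38.9). Of 7 other secretory products of epithelium 1 was higher on PC3-H, the protease gene KLK6 (113 against 51.8, 2.16-fold). AGR2, a secretory pathway isomerase, read 58.2 and 29.2, just within 2-fold, and the trefoil gene TFF1 71.4 and 47.5.

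The lists were drawn up with earlier results of these data known, so their pooled shares are a description and carry no test. Over all 12 lists, without the 5 genes, 84 distinct genes passed the filter in the PC3 pair. Of them 10 (11.9%) were 2-fold or more higher on PC3-H and 6 (7.14%) lower, with a median of 0.13, beside 3.77% and 8.59% of all genes. Of these 16 calls CFB, CHST15, CHSY1, EXTL3, KLK6, RDX and STAT3 fell within 2-fold with a pseudocount of 16, and MSN did so with the gene length trend removed.

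**Figure D3:**
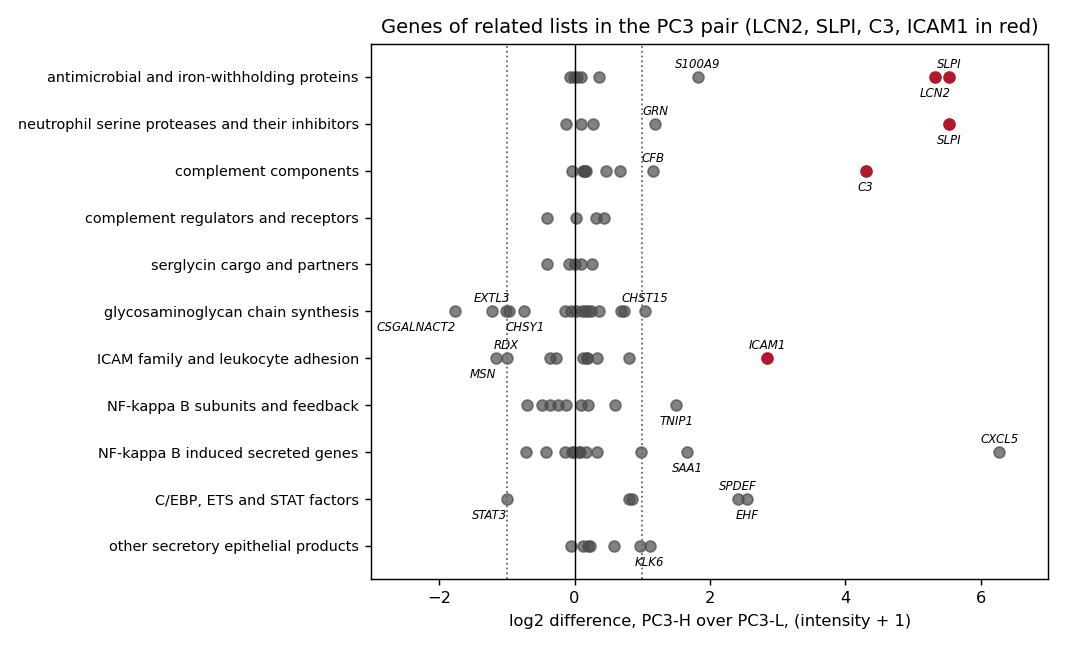
Log2 difference of intensity + 1, PC3-H over PC3-L, for genes past the filter in 11 related lists, 1 point per gene, with dotted lines at 2-fold and LCN2, SLPI, C3 and ICAM1 in red (SRGN is in none of these lists). Most related genes lie between the dotted lines, and CXCL5, at 77.5-fold, lies beyond all of the red points.

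Of the genes next to the 5 on their chromosomes, 14.6% were 2-fold or more higher on PC3-H than on PC3-L, against 3.77% of all genes. The 5 nearest measured genes on each side were taken, in the gene order of GRCh38.p14. LCN2 lies on chromosome 9 at 128149453 to 128153453, SLPI on chromosome 20 at 45252239 to 45254564, C3 on chromosome 19 at 6677704 to 6720650, SRGN on chromosome 10 at 69087603 to 69104811 and ICAM1 on chromosome 19 at 10271120 to 10286615. Of 48 neighbours past the filter in the PC3 pair 7 were 2-fold or more higher on PC3-H and 1 (2.08%, against 8.59% of all genes) lower, with a median of 0.13. The highest was TSPAN15, a tetraspanin gene 347 kb from SRGN, 5.62-fold higher on PC3-H (log2 2.49). The other 9 neighbours of SRGN lay between -0.71 and -0.15. Beside LCN2, the dynamin gene DNM1 was higher (202 against 67.4), and beside SLPI the syndecan gene SDC4 was higher (1162 against 494) and the kinase gene STK4 lower (151 against 448).

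Neighbours of C3 and ICAM1, both on chromosome 19, had medians above 0. The median of the 9 tested neighbours of C3 was 0.67, with CRB3, GPR108 and SH2D3A past 2-fold. The median of the 10 neighbours of ICAM1 was 0.51, with the mitochondrial ribosomal gene MRPL4 past 2-fold (345 on PC3-H, 112 on PC3-L). Over all 903 genes of chromosome 19 the median was 0.15, with 6.2% higher and 2.44% lower, against 3.77% and 8.59% over all chromosomes. The differences of C3 and ICAM1 themselves were 4.30 and 2.85.

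**Figure D4:**
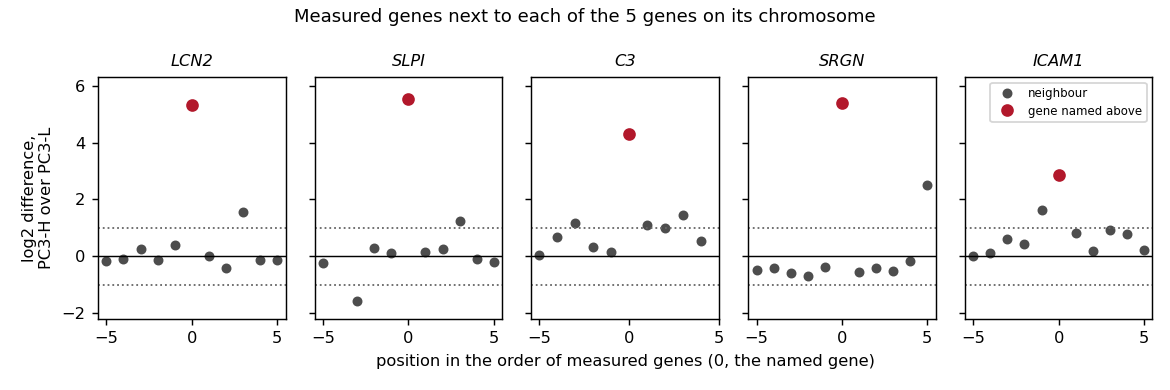
Log2 difference of intensity + 1, PC3-H over PC3-L, for each of the 5 genes (red) and the 5 nearest measured genes on each side (grey), by position in gene order, with dotted lines at 2-fold; neighbours below the filter are not drawn. The red points stand between 2.85 and 5.53, and the highest grey point is TSPAN15 at 2.49.

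Leukocytes carry or make several of the 5 products, so their markers were read too. Of 14 leukocyte markers 7 were measured, and their summed intensity was 540 on PC3-H, 865 on PC3-L, 793 on the LNCaP-AI-labelled array and 338 on LNCaP. CD68, a lysosomal gene that tumour lines also express, was the brightest on all 4 arrays and was lower on PC3-H than on PC3-L (290 against 630). Without CD68 the other 6 summed to 250.2 on PC3-H, 235 on PC3-L, 240.0 on the LNCaP-AI-labelled array and 236 on LNCaP. CD14, MPO and LYZ read 27.9, 29.2 and 28.5 on PC3-H, against 26.9, 33.6 and 27.5 on PC3-L. NKG7, the next brightest of the list, read 88.0 and 75.8. Of 7 fibroblast markers 2 were measured, THY1 and LUM, with sums of 76.1 on PC3-H and 71.7 on PC3-L. Of 7 endothelial markers 5 were measured, with sums of 234 and 227, and CLDN5 (73.4 and 58.2) and ESAM (55.7 and 40.8) as the brightest by mean. PC3 line markers were lower on PC3-H than on PC3-L in 3 of 6, namely VIM, ANXA1 and UCHL1, with sums of 1606 and 4089. Their part in the differences of the 5 genes was not tested.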

How the data were processed

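Per culture, total RNA was isolated with ISOGEN II reagent and labelled with biotin for 1 whole-transcript array, per the labels' protocols. The deposited values are linear intensity values; probe summary, background correction and normalization are not given in the sources used here. The series' design text names GeneSpring GX 12.6 and a false discovery rate of 10%, which cannot be applied with 1 array per group. Of 37934 probes 14952 had 1 gene symbol, 0 several and 22982 none in the platform annotation; all 14952 matched the RefSeq gene table (GRCh38.p14) by Entrez identifier, giving 14006 genes. The probe with the highest mean stood for its gene. Differences were taken as log2(intensity + 1) with Python 3.11.15, numpy 2.4.6 and pandas 2.3.3, over genes with the brighter of the 2 values at or above the 40th percentile of that array, and counted at 2-fold. The code that applies the threshold was tested on simulated data, which says nothing of the error between cultures. The number of arrays limits the precision. Genes and lists were chosen with earlier results of these data known. Genes named are the 5, the 3 nearest to each, list members past 2-fold (up to 4 in the PC3 pair, up to 2 in the LNCaP pair, otherwise the 2 brightest), neighbours past 2-fold, line markers and the 2 brightest cell type markers; others are named to show family members within 2-fold, chosen after their values were seen.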

Additional observations from a re-analysis of the deposited data

Results flagged for a closer look

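At 2 of the genes named above the PC3 pair and the LNCaP pair ran in opposite directions, both past 2-fold; the difference between the pairs was not tested, with 1 array per culture. Taken as low minus high glycan label, GRN differed by -1.19 (log2, PC3-L minus PC3-H) and by 1.75 (LNCaP-AI-labelled array minus LNCaP), a gap of 2.94. SDC4, next to SLPI, differed by -1.23 and 1.53 in the same pairs, a gap of 2.76. In the second pair the line markers go against the array's label, and GRN read 894 there, 855 on PC3-H and 374 on PC3-L.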

How the results depend on the processing

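The count of 5 genes past 2-fold on PC3-H over each other array was the same under all 9 alternatives: pseudocounts of 0 and 16, median centring, quantile normalization, removal of an intensity or a gene length trend, the mean over probes, no filter and a filter at the 60th percentile. Not all of these could change the count. The mean over probes leaves the 5 as they were, with 1 probe each. The filter settings do not alter a difference, and the 5 pass them through their bright PC3-H values. Over PC3-L the log2 difference ran from 4.93 to 5.39 for LCN2, 4.96 to 5.60 for SLPI, 3.88 to 4.41 for C3, 4.79 to 5.46 for SRGN and 2.60 to 2.91 for ICAM1. SLPI in the LNCaP pair ran from -2.32 to -1.84. The genes of the related lists past 2-fold in the PC3 pair numbered 16 as reported and 9 with a pseudocount of 16, which shrinks the differences of dim genes by construction. The other 322 alternative values kept their side of 2-fold and their direction, or, for counts, stayed within 1.5 times the reported count. No pairing by replicate was possible because each group had 1 array and so no replicate numbers to block on. A fit of the glycan label with the line as a block, with 1 residual degree of freedom, was not run. It would test the genes on the PC3 contrast that chose them, and the LNCaP-AI-labelled array goes against its line label. With no replicate, the spread between cultures of one kind is unknown, and values near the array medians set no order among dim genes.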

Other observations

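SLPI had the same deposited value, to every digit, on PC3-L and on the LNCaP-AI-labelled array. Identical values on these 2 arrays occurred at 80 of 37934 probes (0.211%), and at 69 to 95 probes in the other 5 pairs of arrays.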
